A study of Mus musculus with 5 samples.

Results

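Ribosome biogenesis is the making of ribosomal subunits in the nucleolus. RNA polymerase I transcribes the long ribosomal RNA precursor, small nucleolar ribonucleoprotein particles guide its chemical modification and cleavage, and large sets of assembly factors fold and trim the small and large subunits before export to the cytoplasm. Resting lymphocytes are known to keep this pathway low and to raise it when they leave quiescence and grow.

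The genes described here are 56 genes of RNA polymerase I, small nucleolar particles and the processing of both ribosomal subunits, taken by name. Expression was read from 1 probe set per gene, the brightest one among those annotated to that gene alone. By this rule 54 of the 56 were measured, among 19938 genes in all, and Npm3 and Noc2l were not analysed here. Each of the 54 had a mean level above the median of all probe sets (5.66 on the log2 scale), and 44 had a mean above the upper quartile (7.06).

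The arrays came from natural helper cells of the lung, innate lymphocytes without antigen receptors that are also called group 2 innate lymphoid cells. The donors were naive C57Bl/6 mice, 6 to 8 weeks of age, and the sort kept lineage-negative cells with Sca-1, CD127 and CD25 and with little or no c-Kit. In the P/I group, 2 samples spent 3 days in culture (200 microlitres) with PMA at 60 ng/ml and ionomycin at 500 ng/ml, agents that activate protein kinase C and let calcium into the cell. The unstimulated group held 3 samples whose RNA was taken right after the sort. No sample was cultured without PMA and ionomycin, so culture and stimulation cannot be told apart. The labels do not tell whether samples of a group had separate mice or cultures behind them. The p-values therefore cover only sample-to-sample spread, possibly technical.

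The 12 measured defining genes of natural helper cells each lay above the upper quartile on every unstimulated array, and Il1rl1 was not measured. Pearson correlations taken over probe sets, which do not count as replicates, were 0.989 between the P/I arrays, 0.980 to 0.988 between unstimulated arrays and 0.956 to 0.969 between groups. Of 9 marker lists of other cell types, those of endothelium, epithelium, myeloid cells, mast cells, fibroblasts and NK cells had a lower mean on both P/I arrays than on every unstimulated array, while those of T, B and dendritic cells overlapped. The NK means barely differed, at 4.458 and 4.410 against 4.569, 4.520 and 4.461, and Prf1 went the other way (0.54). Single genes had by far the largest differences among fibroblast markers (Dcn, -1.625) and mast cell markers (Cpa3, -2.80), and Cma1 of the mast cell list differed by 0.021. The defining genes of natural helper cells were lower as well, 9.88 and 9.83 on the P/I arrays against 10.47, 10.52 and 10.26 on the unstimulated arrays. Of the 12, 5 fell: Rora, Id2, Il7r, Il17rb and Kit. The largest positive difference was that of Il13, at 2.41, which was not called. Il5, Icos, Il2ra and Ptprc also differed by more than 0, and the largest negative differences were those of Il17rb (-3.225) and Kit (-2.86). Kit, the gene of c-Kit, read 9.88, 9.97 and 9.69 on the unstimulated arrays, although the sort kept cells with little or no c-Kit. The 5 endothelial markers averaged 5.56 and 5.91 on the P/I arrays, against 8.01, 7.68 and 6.35 on unstimulated arrays 1, 2 and 3. For the 6 epithelial markers the means were 5.76 and 5.79, against 7.24, 6.57 and 6.17, and for the 8 markers of macrophages, monocytes and granulocytes 4.85 and 4.84, against 6.53, 6.04 and 5.55. The 7 T cell markers averaged 6.80 and 6.58, against 7.31, 7.64 and 6.59. No marker gene of another cell type was called in either direction. Still, 5 of 8 myeloid, 4 of 6 epithelial and 4 of 5 endothelial markers had both P/I values below every unstimulated value, as had 14.0% of all genes tested. In bulk RNA fewer cells of a type cannot be told apart from less RNA per cell.

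Transcripts for making ribosomes were mostly higher in the cells kept with PMA and ionomycin, but few passed the test singly. Differences are P/I minus unstimulated on the log2 scale, and a gene is said to have risen only where limma's adjusted p was under 0.05. Of the 54 genes, 2 rose (3.70%), Nop16 and Pno1, and none fell, where 0.737% of all genes tested rose and 0.963% fell. Differences above 0 were found for 52 of the 54 (96.3%) and for 49.8% of all genes. The 54 differences ran from -0.049 for Ubtf to 1.53 for Dkc1, with a median of 0.59, and the median over all genes tested was 0.00. At an unadjusted p under 0.05, limma counted 41 of the 54 higher and none lower. Of all 19938 genes it counted 11.3% higher, and 1711 genes lower.

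In 45 of the 54 genes (83.3%) both P/I values lay above all 3 unstimulated values, and in none did both lie below. Among all genes tested, the groups stood apart in this way, higher on the P/I arrays, in 18.6%, and lower in 14.0%. Shares over all genes, here and in the paragraph before, were not matched to the 54 for level. Each of the 54 lay above the median level, as did 10281 of all 19938 genes. Nor were they matched for values shared between arrays, found in 9.3% of the 54 and 62.0% of all genes. The difference of 10 genes was over 1, that is over 2-fold (18.5%), as was that of 2.23% of all genes. These were Dkc1, Nhp2, Nop10, Wdr12, Mrto4, Pno1, Wdr75, Nop16, Ebna1bp2 and Polr1e.

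**Figure D1:**
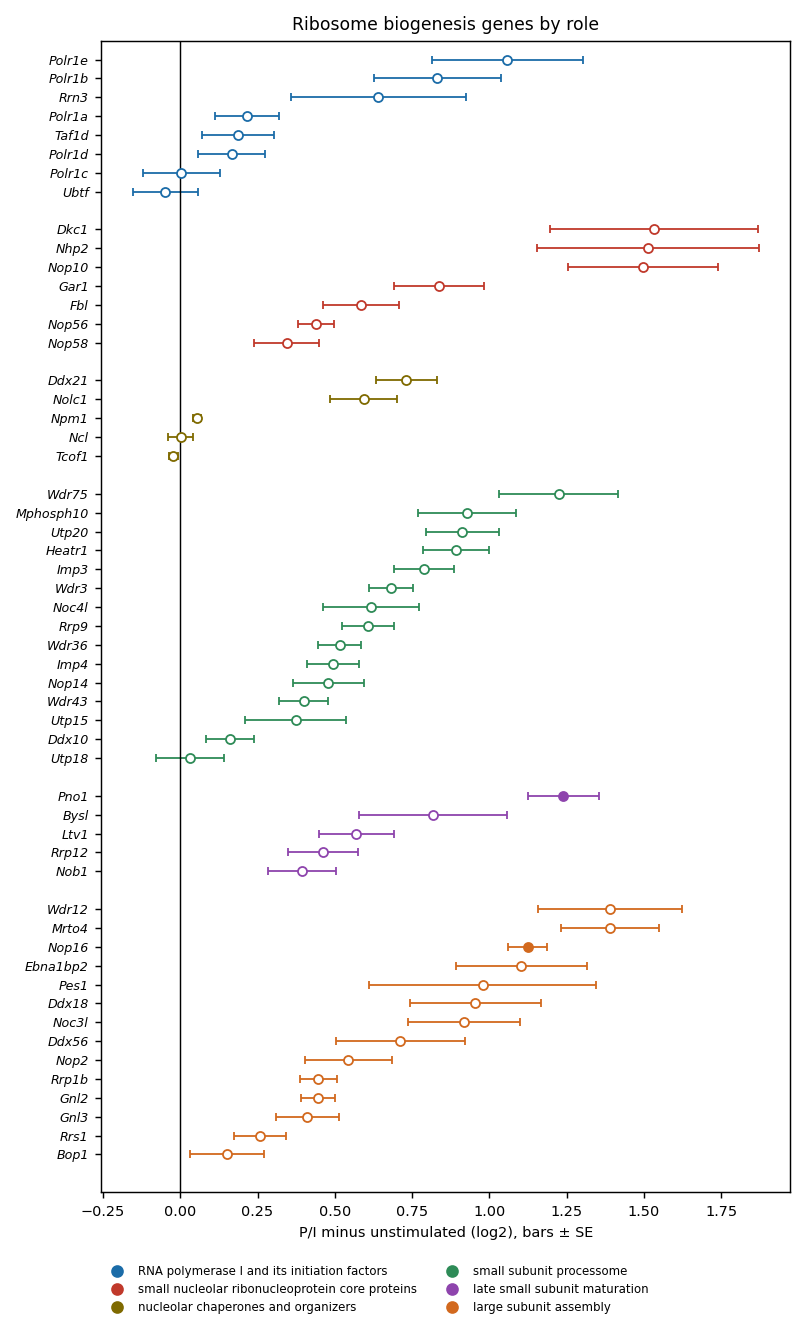
Difference in log2 expression, P/I minus unstimulated, for the 54 measured genes by role, with bars of ± 1 SE from limma (2 P/I and 3 unstimulated arrays). Filled points are the 2 genes with an adjusted p under 0.05, Pno1 and Nop16, and open points are the other 52. Ubtf and Tcof1 are the genes with a difference below 0.

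Relative to the unstimulated mean of each gene, the median over the 54 genes was 0.58 and 0.53 on P/I arrays 1 and 2, against -0.125, 0.02 and 0.05 on unstimulated arrays 1, 2 and 3. Unstimulated array 1 gave the lowest unstimulated value for 38 of the 54 genes, and it was also the array with the highest mean of the endothelial, epithelial and myeloid markers. Set against unstimulated array 3 alone, where those 3 marker lists were lowest among unstimulated arrays, the median difference was 0.52, with 50 of 54 above 0. That fit has 1 residual degree of freedom and called 0 of all 19938 genes, so its calls say nothing about the 54. Of the larger differences, those of Polr1b, Rrn3, Dkc1, Nop2, Pes1 and Ddx18 were over 1.5 times smaller against array 3 alone, at 0.51, 0.33, 0.98, 0.33, 0.60 and 0.62. The comparison with array 3 alone was chosen after the data were seen, and the 3 marker lists were still higher on array 3 than on the P/I arrays. The part of other cells in any of these differences was not tested.

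**Figure D2:**
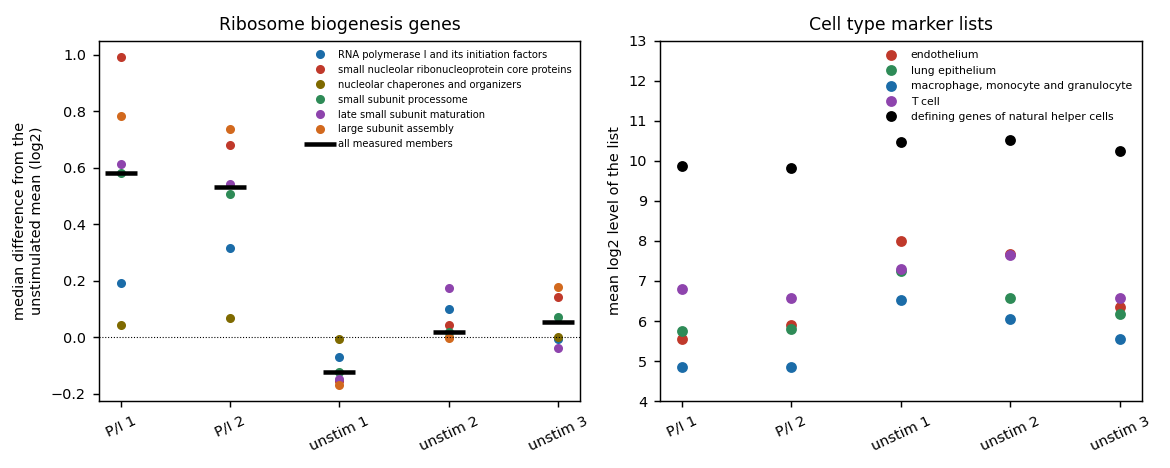
Left, the median difference from each gene's unstimulated mean (log2) on every array, for the genes of each role (coloured points) and for all 54 measured genes (black bars, 0.58 and 0.53 on the P/I arrays). Right, the mean log2 level of 5 marker lists on every array, where the endothelial, epithelial and myeloid lists are highest on unstimulated array 1 and lowest on the P/I arrays.

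Nop16, whose product is a nucleolar factor of large subunit assembly, read 8.46 and 8.56 on the P/I arrays, against 7.36, 7.47 and 7.33 on the unstimulated arrays. The arrays of a group lay close together, with means of 8.51 ± 0.076 (SD, n = 2) and 7.39 ± 0.076 (SD, n = 3). It rose 2.18-fold (1.12 ± 0.064 SE, adjusted p = 0.0306 by limma). Pno1 codes for an RNA-binding protein that is needed at the last cleavage of the small subunit's RNA. Its values were 8.13 and 7.97 on the P/I arrays, against 6.98, 6.73 and 6.72 on the unstimulated arrays. Here too the groups were separate, by more than the spread within either, and Pno1 rose 2.36-fold (1.24 ± 0.11 SE, adjusted p = 0.0456 by limma). Both calls depended on all 5 arrays: limma's adjusted p ran from 0.0525 to 0.102 for Nop16 and from 0.0828 to 0.155 for Pno1 with each array left out in turn.

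The windows around the start sites of 4 genes are shown to set both genes that rose beside 2 others, Rrn3 and Utp18. Both of the others hold the motif marked here, so the 4 windows do not stand for the whole list. They are RefSeq sequences of build GRCm38.p6, 250 bases before to 50 after the gene's start, written 5′ to 3′ on the gene's strand. Capitals mark CACGTG, the E-box that MYC and MAX proteins are known to bind, which reads the same on both strands.
Nop16, chr13:54590025-54590324, minus strand: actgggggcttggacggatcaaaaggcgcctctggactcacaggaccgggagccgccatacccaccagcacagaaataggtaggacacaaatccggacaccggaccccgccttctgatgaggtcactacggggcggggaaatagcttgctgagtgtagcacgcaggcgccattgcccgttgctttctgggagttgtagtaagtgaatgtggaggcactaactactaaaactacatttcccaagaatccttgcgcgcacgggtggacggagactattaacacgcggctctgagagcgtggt
Pno1, chr11:17211540-17211839, minus strand: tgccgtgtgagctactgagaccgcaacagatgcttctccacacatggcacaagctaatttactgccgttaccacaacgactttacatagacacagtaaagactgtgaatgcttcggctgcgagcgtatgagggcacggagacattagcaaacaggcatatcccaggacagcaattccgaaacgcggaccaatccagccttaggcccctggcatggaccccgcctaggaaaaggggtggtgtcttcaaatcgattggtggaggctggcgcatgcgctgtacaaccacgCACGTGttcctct
Rrn3, chr16:13780449-13780748, plus strand: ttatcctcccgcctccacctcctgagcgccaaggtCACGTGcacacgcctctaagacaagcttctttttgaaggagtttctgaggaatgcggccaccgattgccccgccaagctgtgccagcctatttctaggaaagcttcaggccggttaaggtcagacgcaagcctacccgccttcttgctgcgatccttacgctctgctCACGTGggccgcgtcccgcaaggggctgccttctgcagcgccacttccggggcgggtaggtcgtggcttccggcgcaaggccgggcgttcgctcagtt
Utp18, chr11:93885717-93886016, minus strand: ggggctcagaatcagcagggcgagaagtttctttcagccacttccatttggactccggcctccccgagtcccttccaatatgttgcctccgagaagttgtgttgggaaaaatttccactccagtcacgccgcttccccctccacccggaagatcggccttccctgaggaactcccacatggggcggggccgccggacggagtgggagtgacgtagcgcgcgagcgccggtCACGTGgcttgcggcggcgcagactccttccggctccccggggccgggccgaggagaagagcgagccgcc
Nop16 has no CACGTG in its window. The motif in Pno1 begins 37 bases after the start base, those in Rrn3 begin 215 and 48 bases before it, and that in Utp18 begins 20 bases before it. A window was found for 48 of the 56 genes, and 9 of these 48 (18.8%) hold the motif, as do 8.09% of the 27025 genes in the sequence table and 9.5% of those that were also measured. The others with the motif are Imp4, Ltv1, Nop2, Pes1, Utp20 and Wdr43. The median difference was 0.57 over the 9 genes with the motif (0.031 to 1.24) and 0.71 over the 37 measured genes without it (-0.049 to 1.53). Bop1, Fbl, Gnl2, Npm1, Rrp12, Rrs1, Tcof1 and Wdr36 had no entry in the sequence table.

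Of the 8 genes for RNA polymerase I and its initiation factors, none was called, and 2 had an unadjusted p under 0.05 in limma. The median difference was 0.20, or 0.32 both without P/I array 1 and against unstimulated array 3 alone, and 0.37 with the lowest probe set of each gene. Polr1e, which codes for a subunit found in RNA polymerase I alone, read 7.10 and 7.40 on the P/I arrays, against 6.17, 6.53 and 5.87 on the unstimulated arrays. Its groups did not overlap, and the difference of 1.06 ± 0.25 SE did not pass the test (adjusted p = 0.137). Polr1b, the gene of the second-largest subunit, read 7.07 and 6.94 on the P/I arrays, against 5.91, 6.11 and 6.49 on the unstimulated arrays (0.83 ± 0.21 SE, adjusted p = 0.151). Rrn3 codes for the factor that brings the polymerase to its promoter, and its values of 9.08 and 9.22, against 8.04, 8.66 and 8.82, gave 0.64 ± 0.28 SE (adjusted p = 0.362). Without unstimulated array 1, its lowest value and the array highest in those marker lists, the difference of Rrn3 was 0.41.

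The other 5 polymerase I genes had overlapping groups at their brightest probe sets. Polr1a, which codes for the largest and catalytic subunit, differed by 0.22 ± 0.10 SE (95% interval -0.080 to 0.51). Polr1c and Polr1d code for subunits that RNA polymerases I and III share. Their differences were 0.003 (95% interval -0.36 to 0.36) and 0.17 (-0.15 to 0.48). The probe set used for Polr1d read 10.69 on P/I array 2 and on unstimulated arrays 1 and 2. A second, dimmer probe set of Polr1d differed by 0.52, and there both P/I values lay above every unstimulated value. Ubtf, the gene of the activator UBF that binds along ribosomal DNA, read 7.74 and 7.78 on the P/I arrays, against 7.65, 7.81 and 7.96 on the unstimulated arrays. The P/I values lay inside the unstimulated range, and the 95% interval of the difference ran from -0.35 to 0.25. Taf1d codes for a subunit of the promoter selectivity factor SL1. Its brightest probe set differed by 0.19, while its 9 probe sets ran from -0.63 to 0.72, so no direction is given for it.

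The 7 core protein genes of small nucleolar ribonucleoproteins had a median difference of 0.84. All 7 had P/I values above every unstimulated value and an unadjusted p under 0.05 in limma, and none was called. The median moved to 0.68 without P/I array 1, to 0.99 without P/I array 2 and to 0.69 against unstimulated array 3 alone. These proteins form 2 kinds of particle, of which the H/ACA kind turns uridine into pseudouridine and the C/D kind adds methyl groups to ribose.

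Among the 4 H/ACA genes, Dkc1, which codes for the pseudouridine synthase dyskerin, read 8.68 and 8.67 on the P/I arrays, against 6.75, 6.98 and 7.70 on the unstimulated arrays. The unstimulated arrays were far apart while the P/I arrays nearly coincided, and the 2.89-fold difference did not pass (1.53 ± 0.34 SE, adjusted p = 0.126). Nhp2 read 9.11 and 9.06 on the P/I arrays, against 6.96, 7.82 and 7.93 on the unstimulated arrays, a difference of 1.51 ± 0.36 SE (adjusted p = 0.142). Nop10, whose small product binds dyskerin, read 10.76 and 10.60, against 8.79, 9.30 and 9.46 (1.50 ± 0.24 SE, adjusted p = 0.0853). For all 3, unstimulated array 1 was the lowest and array 3 the highest. Gar1 had the least difference of the 4 at 0.84 ± 0.15 SE (adjusted p = 0.0937).

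Differences were less in the 3 C/D genes. Fbl, the gene of the methyltransferase fibrillarin, read 10.95 and 10.77 on the P/I arrays, against 10.14, 10.45 and 10.23 on the unstimulated arrays (0.59 ± 0.12 SE, adjusted p = 0.120). A second, dimmer probe set of Fbl differed by -0.082. Nop56 and Nop58, whose products form the scaffold of the particle, differed by 0.44 ± 0.059 and 0.34 ± 0.11 SE (adjusted p = 0.0678 and 0.207). The gap between the H/ACA genes, 0.84 to 1.53, and the C/D genes, 0.34 to 0.59, was seen after the values were known and was not tested.

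**Figure D3:**
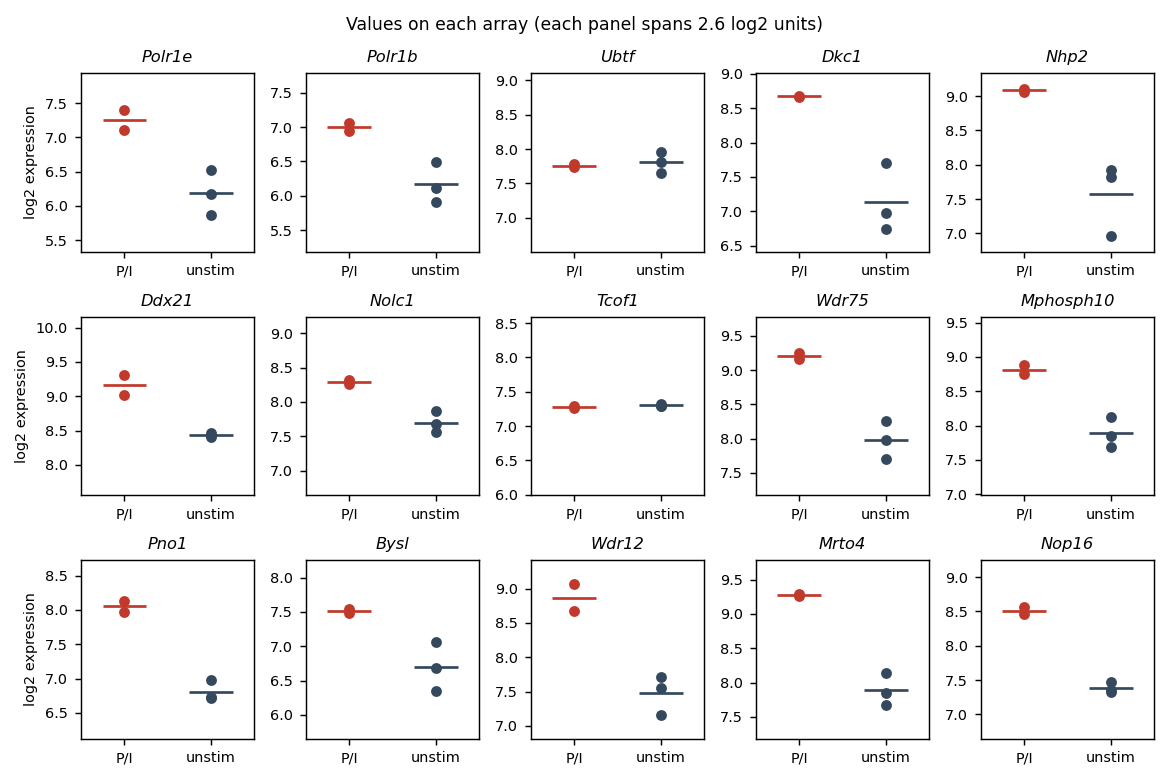
Log2 expression on each array for 15 genes, with P/I arrays left and unstimulated arrays right in each panel, points for arrays and lines for group means. Both P/I points lie above all unstimulated points in every panel except those of Ubtf and Tcof1, and the unstimulated points spread most for Dkc1 and Nhp2.

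Nucleolar chaperones and organizers showed the least difference of the 6 roles, with a median of 0.055 over 5 measured genes, none of them called and 3 with an unadjusted p under 0.05 in limma. Ncl codes for nucleolin, an abundant nucleolar RNA-binding protein. It read 10.94 on both P/I arrays, against 10.95, 10.87 and 10.99 on the unstimulated arrays, and the 95% interval of the difference ran from -0.12 to 0.12. Npm1, the gene of nucleophosmin, read 11.44 and 11.46 on the P/I arrays, against 11.40 on each of the 3 unstimulated arrays. That difference was 0.055 ± 0.013 SE (adjusted p = 0.143), with 1 value shared by all unstimulated arrays. Tcof1 codes for treacle, which links polymerase I to early processing. It read 7.27 and 7.30 on the P/I arrays, against 7.30, 7.32 and 7.30 on the unstimulated arrays, and the difference was -0.022 (95% interval -0.069 to 0.026). P/I array 2 and unstimulated arrays 1 and 3 shared 1 value of Tcof1, 7.296, so this narrow interval rests in part on tied values.

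The other 2 genes of this role stood apart from those 3. Ddx21, the gene of a nucleolar RNA helicase, read 9.03 and 9.31 on the P/I arrays, against 8.41, 8.44 and 8.47 on the unstimulated arrays (0.73 ± 0.099 SE, adjusted p = 0.0687). Nolc1, whose product Nopp140 accompanies small nucleolar particles, read 8.26 and 8.33 on the P/I arrays, against 7.55, 7.86 and 7.68 on the unstimulated arrays (0.59 ± 0.11 SE, adjusted p = 0.0987). In both, the P/I arrays were above all unstimulated arrays.

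The small subunit processome is the large particle that assembles on the nascent precursor around the U3 small nucleolar RNA. None of its 15 genes was called, 12 had an unadjusted p under 0.05 in limma, and groups were separate for 14. The median difference was 0.61, and the adjusted p-values of the 15 genes ran from 0.0517 for Wdr3 to 0.910 for Utp18. In yeast, several of these proteins are known by UTP names and fall into subcomplexes.

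Wdr75, Heatr1, Wdr43 and Utp15 code for proteins whose yeast counterparts bind the precursor first and are also linked to its transcription. Wdr75 read 9.25 and 9.16 on the P/I arrays, against 7.70, 7.98 and 8.26 on the unstimulated arrays. The gap between the groups exceeded the spread within either, and the 2.34-fold difference missed the threshold (1.22 ± 0.19 SE, adjusted p = 0.0822). Heatr1 read 9.13 and 9.06, against 8.04, 8.22 and 8.34 (0.89 ± 0.11 SE, adjusted p = 0.0604). Wdr43 (0.40 ± 0.078 SE, adjusted p = 0.107) and Utp15 (0.37 ± 0.16 SE, adjusted p = 0.362) differed less.

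Wdr3, Wdr36 and Utp18 code for counterparts of a second yeast subcomplex. Wdr3 read 7.24 and 7.43 on the P/I arrays, against 6.64, 6.64 and 6.69 on the unstimulated arrays (0.68 ± 0.070 SE). Its adjusted p of 0.0517 was the nearest to the threshold among the 52 of these genes not called, and it was called without P/I array 1 and also without P/I array 2. Wdr36 differed by 0.52 ± 0.070 SE (adjusted p = 0.0687). Utp18 read 8.51 and 8.19 on the P/I arrays, against 8.34, 8.28 and 8.33 on the unstimulated arrays, so its P/I values lay on either side of the unstimulated ones (95% interval of the difference -0.28 to 0.34).

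Imp3, Imp4 and Mphosph10 code for a trio that binds the U3 particle. Mphosph10 read 8.89 and 8.75 on the P/I arrays, against 7.69, 7.85 and 8.13 on the unstimulated arrays (0.93 ± 0.16 SE, adjusted p = 0.0915). Imp3 read 10.07 and 9.78, against 9.12, 9.15 and 9.15 (0.79 ± 0.098 SE, adjusted p = 0.0625), and Imp4 differed by 0.49 ± 0.084 SE (adjusted p = 0.0897). Rrp9, a core protein of the U3 particle itself, differed by 0.61 ± 0.084 SE (adjusted p = 0.0710). All 4 genes had P/I values above every unstimulated value.

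Of the remaining processome genes, Utp20, whose product is a very large scaffold protein, read 8.03 and 7.81 on the P/I arrays, against 6.88, 6.98 and 7.15 on the unstimulated arrays (0.91 ± 0.12 SE, adjusted p = 0.0652). Nop14 and Noc4l, whose yeast counterparts bind each other, differed by 0.48 ± 0.11 and 0.62 ± 0.16 SE (adjusted p = 0.143 and 0.153). The helicase gene Ddx10 differed by 0.16 ± 0.078 SE (adjusted p = 0.397).

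The 5 genes of late small subunit maturation act on the particle as it leaves the nucleolus and ripens in the cytoplasm. Pno1 was the one that rose, all 5 had separate groups and an unadjusted p under 0.05 in limma, and the median difference was 0.57. Bysl, the gene of bystin, read 7.49 and 7.55 on the P/I arrays, against 6.36, 7.06 and 6.69 on the unstimulated arrays (0.82 ± 0.24 SE, adjusted p = 0.194). The unstimulated values of Bysl were more scattered than those of Pno1. Ltv1, an export-linked assembly factor, differed by 0.57 ± 0.12 SE, Rrp12 by 0.46 ± 0.11 SE, and Nob1, the nuclease that makes the last cut with which Pno1 assists, by 0.39 ± 0.11 SE (adjusted p = 0.121, 0.150 and 0.181).

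The 14 measured genes of large subunit assembly had a median difference of 0.82, or 0.61 against unstimulated array 3 alone. Nop16 rose, 12 of the 14 had an unadjusted p under 0.05 in limma, and groups were separate for 13. Mrto4, whose product resembles a ribosomal stalk protein and holds its place during assembly, read 9.27 and 9.29 on the P/I arrays, against 7.67, 7.85 and 8.14 on the unstimulated arrays. The P/I arrays lay over 1 log2 unit above the highest unstimulated array, and the 2.62-fold difference just missed the threshold (1.39 ± 0.16 SE, adjusted p = 0.0577). Its second probe set differed by 1.47. Ebna1bp2 read 9.29 and 8.99, against 7.72, 8.19 and 8.20 (1.10 ± 0.21 SE, adjusted p = 0.105).

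Pes1, Bop1 and Wdr12 code for the 3 proteins of the PeBoW complex, which is needed for processing of the large subunit's RNA, and their differences were unlike. Wdr12 read 9.06 and 8.67 on the P/I arrays, against 7.16, 7.55 and 7.71 on the unstimulated arrays (1.39 ± 0.23 SE, adjusted p = 0.0884). Pes1 read 7.59 and 7.85 on the P/I arrays, against 6.14, 6.96 and 7.12 on the unstimulated arrays, where array 1 was far below the other 2 (0.98 ± 0.37 SE, adjusted p = 0.285). Bop1 read 6.37 and 6.41 on the P/I arrays, against 6.08, 6.21 and 6.43 on the unstimulated arrays. Its groups overlapped, the 95% interval of its difference ran from -0.20 to 0.50, and the contrast with its partners was not tested.

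Among the other large subunit genes, the helicase gene Ddx18 differed by 0.96 ± 0.21 SE (adjusted p = 0.129), with 1.03 for its second probe set, and Noc3l by 0.92 ± 0.18 SE (adjusted p = 0.109). Ddx56, another helicase gene, differed by 0.71 ± 0.21 SE (adjusted p = 0.193), and Nop2, the gene of an RNA methyltransferase, by 0.54 ± 0.14 SE (adjusted p = 0.161). The GTPase genes Gnl2 and Gnl3, the second of which codes for nucleostemin, differed by 0.45 ± 0.055 and 0.41 ± 0.10 SE (adjusted p = 0.0616 and 0.152). Rrp1b differed by 0.45 ± 0.060 SE (adjusted p = 0.0682) and Rrs1 by 0.26 ± 0.084 SE (adjusted p = 0.229).

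Other genes of the pathway were read from lists written for this purpose. Of 33 measured genes for other small subunit processing steps, Utp4, another counterpart of the early-binding yeast proteins, and Krr1 rose and none fell, with a median of 0.34. Utp4 read 8.82 and 8.71 on the P/I arrays, against 7.86, 7.83 and 7.76 on the unstimulated arrays, and rose 1.93-fold (0.95 ± 0.050 SE, adjusted p = 0.0271). Krr1 rose 1.39-fold (0.48 ± 0.044 SE, adjusted p = 0.0456). Of 39 genes for other large subunit steps, Las1l, which codes for an endonuclease of the internal spacer, rose 2.18-fold (1.12 ± 0.084 SE, adjusted p = 0.0374), none fell, and the median was 0.35. As with Nop16 and Pno1, leaving out 1 array ended the calls of Krr1 and Las1l in every case, and that of Utp4 wherever an unstimulated array was left out.

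The shared lists around these steps held no called gene. Over 12 other polymerase I factors and shared subunits the median was 0.46, with Polr2l, a small subunit of all 3 nuclear polymerases, at 1.17 ± 0.15 SE (adjusted p = 0.0663). Over 10 assembly factors of small nucleolar particles it was 0.66, with the ATPase gene Ruvbl1 at 1.39 ± 0.18 SE (adjusted p = 0.0638). The 14 measured genes of the RNA exosome, which trims ribosomal RNA from its 3′ end, and of its cofactors had a median of 0.62, or 0.41 without P/I array 1. At an unadjusted p under 0.05, limma counted 7, 5 and 9 genes of these 3 lists higher and none lower, beside 11.3% of all genes higher.

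A median of this size was also found outside polymerase I and the nucleolus. Subunits that RNA polymerase I does not use had a median of 0.73 for polymerase II (8 genes) and 0.42 for polymerase III (10 genes), with none called and 5 higher and none lower in each list at an unadjusted p under 0.05 in limma. The 77 mitochondrial ribosomal protein genes had a median of 0.68, 2 of them rose (Mrpl16 and Mrps2), and 68 had separate groups with P/I higher. The 57 genes taken by symbol as cytosolic ribosomal proteins (Rpl or Rps and a number) had a median of -0.004, with 8 genes apart on the higher side and 11 on the lower. The symbols also took in the like-named genes Rps27l (1.67) and Rpl7l1 (1.34), which had the 2 largest differences of the list. Among the 57, Rpl34 rose (0.45 ± 0.039 SE, adjusted p = 0.0441) and none fell. Of all genes tested, 18.6% stood apart on the higher side and 14.0% on the lower, so the counts of the cytosolic list are not particular to it. The calls of Mrpl16, Mrps2 and Rpl34 were each lost when any 1 array was left out, with adjusted p from 0.0504 to 0.0919, 0.0549 to 0.127 and 0.0714 to 0.137 by limma. The difference between the medians of these lists was not tested. Probe sets of genes with many near-identical copies, as the cytosolic ribosomal proteins have, may read more than 1 locus.

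**Figure D4:**
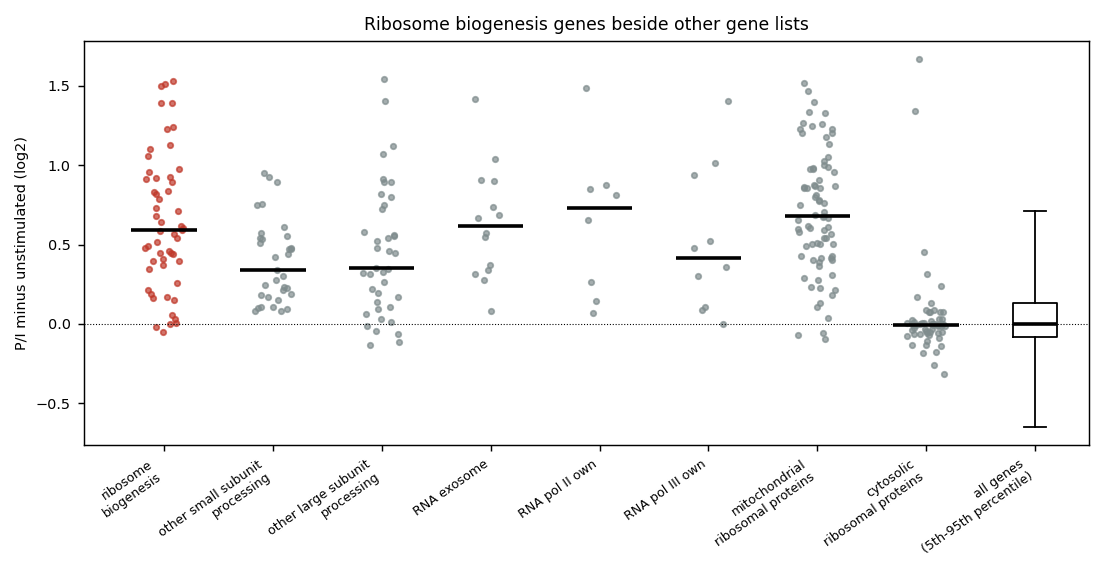
Difference in log2 expression, P/I minus unstimulated, for each of the 54 measured ribosome biogenesis genes (red) and for the genes of 7 other lists (grey), with black lines at the medians, 0.59 for the red points. The box at right spans the quartiles of all 19938 genes, with whiskers at the 5th and 95th percentiles. The cytosolic ribosomal proteins, taken by symbol, have a median of -0.004, with differences from -0.32 to 1.67 (Rps27l).

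Values of genes for DNA replication and proliferation stood higher on the P/I arrays too, with a median of 0.57 over 15 measured genes and none called. That median depended on single arrays, at 0.26 without P/I array 1, 0.85 without P/I array 2 and 0.28 against unstimulated array 3 alone. Their median level was 7.34 and 7.08 on P/I arrays 1 and 2, against 6.45, 6.91 and 6.85 on the unstimulated arrays. Their part in the values of the ribosome biogenesis genes was not tested.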

How the data were processed

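Gene expression was measured on 5 one-colour Affymetrix arrays, 2 P/I and 3 unstimulated. The deposited values are log2 expression values, and RMA is the method named per the submitters' processing notes. Its version, and which arrays were normalized together, is not given in the sources used here. There were 35556 probe sets, with array medians of 5.63 to 5.66. Without detection calls, precision is limited by the number of arrays.

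Probe sets were named through the platform annotation: 21789 had 1 symbol, 1621 several and 12146 none there. Of those with 1 symbol, an Entrez number linked 21698 to the mouse gene table, and no symbol changed. Each gene was read from its brightest probe set by mean over arrays. All 19938 genes were fitted with limma 3.58.1 in R 4.3.3 (lmFit, eBayes, no filter) and called at a Benjamini-Hochberg adjusted p under 0.05. Prior degrees of freedom were 0.649, residual ones 3, and intervals are 95% from the same fit. With 10 ways to split the arrays, an exact permutation test cannot go below p = 0.1 and was not used. The scripts were tested on simulated data. Of the 54 genes, 5 had a value that 2 or more arrays shared to 5 decimals, as had 62.0% of all genes.

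Every gene of the list could be named. Per role, array values are given for called genes, the 2 largest positive differences and the largest negative one, and other genes were shown after their values were seen. From other lists, called genes and up to 2 with the largest difference could be named. The genes, lists and tests were chosen with earlier results of these data known. Alternatives were other variance models, array weights, filters on dim genes, other probe sets, other normalizations, other thresholds, a block, and leaving out each array. The motif search used Python 3.11.15, and plots matplotlib 3.10.9. Replicate numbers were not used as pairs in the main fit, since no label says that a number marks a shared mouse or batch.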

Additional observations from a re-analysis of the deposited data

How the results depend on the processing

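The median difference of the 54 genes stayed within its spread between arrays (0.15) under each alternative run, from 0.49 to 0.67 with each array left out, and no gene of the 54 was called lower under any. The count called higher was not stable. Against 2, limma gave 1 with robust variances, 0 at an adjusted p under 0.01 and 20 under 0.10, 23 among genes above the median level, 8 above the lower quartile, 18 after median centring, 23 after quantile normalization and 20 after cyclic loess. Of all genes tested, 3.79% were called higher at 0.10, 8.03% above the median level, 2.02% above the lower quartile, and 3.31%, 4.14% and 3.1% after those 3 normalizations. With each array left out it gave 0 to 3: 3 without either P/I array (Ddx21, Imp3 and Wdr3) and 0 without each unstimulated array. Of all genes, 1.72% and 1.81% were called higher without P/I arrays 1 and 2, but 0.01%, 0.0% and 0.226% without unstimulated arrays 1, 2 and 3, so those zeros are not particular to the 54. Chosen after seeing the data, unstimulated array 3 as the only unstimulated array gave 0 (0.0% of all genes), and leaving out genes that hold 1 value on all 5 arrays gave 19 (3.6% of all genes tested). In the second fit the prior had 1.38 degrees of freedom, against 0.649 in the main fit. After median centring, quantile normalization and cyclic loess it had 1.37, 1.45 and 1.32. Those normalizations moved the median difference over all genes by 0.021, 0.008 and -0.003. Of all called genes, 43.4% were higher, against 55.6% after median centring, 53.6% above the median level, 51.7% without the genes of 1 value and 62.3% without P/I array 1. The replicate block gave 0 calls, of the 54 or of all genes, on 1 residual degree of freedom. Deviations of same-numbered arrays from their group means had correlations of -0.145 and -0.058. With 2 P/I arrays, whose deviations mirror each other, such correlations cannot decide whether the numbers pair samples.

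Signs changed in 7 genes, none of them called. Polr1c (0.003) was -0.014 with array weights, -0.027 after quantile normalization, -0.042 after cyclic loess, -0.058 with the replicate block and -0.058 to 0.109 with arrays left out. Ncl (0.001) was -0.009 and -0.015 after those normalizations, -0.048 against unstimulated array 3 alone and -0.031 to 0.025 with arrays left out. Ubtf (-0.049) was 0.027 with the block and -0.127 to 0.027 with arrays left out. Utp18 (0.031) was -0.015 after cyclic loess and -0.126 to 0.188 with arrays left out. Bop1 (0.15) was -0.039 against unstimulated array 3 alone, and the lowest probe sets of Taf1d (0.19) and Fbl (0.59) gave -0.106 and -0.082. The causes were not tested. Without detection calls, a dim probe set cannot be set apart from background.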
